A study of Mus musculus with 61 samples.

Results

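The common gamma-chain cytokine receptors are the cell surface receptors that share the chain encoded by Il2rg. Their 8 genes, Il2ra, Il2rb, Il2rg, Il4ra, Il7r, Il9r, Il15ra and Il21r, were found by symbol among the 24421 genes counted in 61 mouse RNA-seq libraries. The labels give all mice as C57BL/6 and 2 months of age. CD4+ T cells gave 30 libraries. Naive cells from pooled lymph nodes and spleens of WT mice or of mice whose floxed Stat5a and Stat5b genes were deleted by Cd4-Cre, which acts in the T cell lineage, were activated through the T cell receptor and CD28. They were transduced with an empty retrovirus or with one that carries mouse STAT5B, unmutated or as N642H, Y665F or Y665H, kept with IL-2 for 48 h, and sorted for the GFP of the vector, with 3 libraries for each vector and background. The genotype entry of the labels names the floxed alleles for all 30, so WT and Stat5a/b-null (S5KO) were told apart by the titles. Total T cells were isolated from spleens of WT mice and of knock-in mice carrying Stat5b Y665H or Y665F, made in C57BL/6N mice. After 24 h in IL-2 plus IL-7 there were 4 libraries of each genotype, and 3 more came from Y665F cells without interleukin. Whether those 3 were cultured is not stated in the study's methods. Of the 4 Y665H ones, replicate 4 holds 5327354 reads on genes, exactly those of replicates 1 (3310342) and 2 (2017012) together. Its reads without a gene also equal theirs together, so it appears to repeat their reads. Tests with Y665H T cells thus rest on fewer than 4 independent libraries, which their SE and p do not take into account. Replicate 4 also enters the spread that was estimated jointly for the other splenic T cell tests. Spleens without stimulation, from male mice, make up the last 16 libraries, with 4 of WT, 5 of Y665H and 7 of Y665F. All 30 CD4+ libraries thus come from transduced and sorted cells, and the spleens hold every cell type of the organ, although their titles read splenocyte. Nothing in the labels says whether libraries of a group came from separate animals or cultures, so p-values measure the spread between these libraries.

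In this receptor family, each cytokine is bound by 1 or more private chains and signals through the gamma chain, which carries JAK3, while the partner chains that signal, such as Il2rb, Il4ra and Il7r, carry JAK1. Il2ra encodes CD25, which raises the affinity of the receptor for IL-2, and Il2rb encodes the beta chain used by both IL-2 and IL-15. Il15ra presents IL-15, and Il7r, Il4ra, Il9r and Il21r encode the private chains for IL-7, IL-4, IL-9 and IL-21. IL-2, IL-7, IL-9 and IL-15 signal mainly through STAT5, IL-4 through STAT6 and IL-21 mainly through STAT3. In T cells, IL-2 and STAT5 raise Il2ra in a positive loop, and Il7r is high in resting T cells and falls once they receive cytokine or antigen.

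In GENCODE vM21 on GRCm38 (mm10), Il2ra spans chr2:11642807-11693193 and Il15ra, close by on the same plus strand, chr2:11705290-11734317. Il4ra at chr7:125552120-125579474 and Il21r at chr7:125603429-125633570 also lie side by side on the plus strand. On the minus strand are Il2rb at chr15:78479256-78495271, Il7r at chr15:9505788-9530176, Il9r at chr11:32187541-32200279 and Il2rg at chrX:101264378-101268255. The annotation places other genes across Il2ra, Il2rg and Il4ra, namely Gm37881, Gm20489 and Gm44876, none of which is among the counted symbols. Promoter windows of 300 bases, from 250 before to 50 after a start site, were at hand from RefSeq (GRCm38.p6) for 7 of the 8 genes. Members of the STAT family bind DNA at TTCNNNGAA, which was searched on both strands (the motif reads the same on each) and stands in 8.3% of 32851 promoters. Among the receptor genes, 1 had it, Il7r. The windows of Il2ra, the gene that moved most, and Il7r, which moved the other way in T cells, are shown here with the motif in capitals.
Il2ra promoter, chr2:11642542-11642841, plus strand: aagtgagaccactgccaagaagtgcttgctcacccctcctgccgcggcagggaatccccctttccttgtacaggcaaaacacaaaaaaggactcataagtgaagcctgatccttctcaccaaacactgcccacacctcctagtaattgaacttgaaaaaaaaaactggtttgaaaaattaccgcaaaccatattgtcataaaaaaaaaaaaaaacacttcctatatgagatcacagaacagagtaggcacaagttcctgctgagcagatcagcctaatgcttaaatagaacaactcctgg
Il7r promoter, chr15:9529827-9530126, minus strand: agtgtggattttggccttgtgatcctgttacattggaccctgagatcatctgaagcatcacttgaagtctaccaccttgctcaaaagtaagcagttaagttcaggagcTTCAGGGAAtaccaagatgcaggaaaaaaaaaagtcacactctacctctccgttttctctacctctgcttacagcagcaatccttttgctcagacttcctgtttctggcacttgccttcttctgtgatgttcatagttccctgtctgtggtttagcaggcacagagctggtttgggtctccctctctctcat
The match in Il7r begins 142 bases before the start site. No match in the Il2ra window says only that these letters are not in it, since regulatory regions farther away were not searched.

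The reads assigned to genes numbered from 18825994 to 49850689 per CD4+ library, from 2017012 to 27394249 per splenic T cell library, where 3 had under 5000000, and from 24203179 to 43330536 per spleen library. Levels are given as CPM, counts relative to the library size after TMM scaling, which was done separately for the CD4+ T cells, the splenic T cells and the spleens. A DEG is a gene with a log2 fold change beyond 1 whose p in edgeR's quasi-likelihood test, adjusted over all genes of a fit by Benjamini and Hochberg, is under 0.05. Stat5b, the targeted gene, was at 201 ± 12.3 CPM (SD, n = 3) in WT libraries and at 5.86 ± 3.39 CPM (SD, n = 3) in null libraries, both without a construct. Their titles name no vector, so they were taken as the empty-vector cells that the study's methods describe. With a construct, its mean in null cells was 216.5 (N642H) to 315 CPM (STAT5B). In the CD4+ libraries Cd8a and all 6 NK markers stayed under 1 CPM in each group, as did at least 8 of 10 B cell markers. The other CD8 marker, Cd8b1, did not. With the empty vector, the sum of these 2 CD8 genes was 15.1 to 20.3 CPM in null and 6.29 to 7.62 CPM in WT libraries. Between them, 1 of the 2 was a DEG, higher in null cells. In spleens the summed level of 12 T cell markers was 657 to 793 CPM in WT and that of 10 B cell markers 3901 to 4478 CPM.

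Genes for chains of the IL-2, IL-4 and IL-7 receptors were lower in cells without STAT5. With the empty vector, 4 of the 8 receptor genes were lower in null than in WT cells and 0 higher, against 4.68% DEGs among 21975 genes tested. Il2ra read 154, 191 and 268 CPM in the 3 null libraries and 1864, 2033 and 1266 CPM in the WT ones. All null libraries lay far below all WT libraries, and Il2ra fell 8.43-fold (log2 fold change −3.08, SE 0.25, edgeR adjusted p = 1.44e-09). Il4ra was 94.2 ± 14.01 CPM (SD, n = 3) in null and 379.5 ± 88.6 CPM (SD, n = 3) in WT cells, 4.03-fold lower without overlap (log2 fold change −2.01, SE 0.18, edgeR adjusted p = 1.2e-08). Il7r was at 16.02, 21.6 and 13.2 CPM in null and 89.3, 76.03 and 28.7 CPM in WT libraries. The third WT library was thus closer to the null libraries than to the other WT ones, and the fall of Il7r was 3.81-fold (log2 fold change −1.93, SE 0.49, edgeR adjusted p = 0.00794). Il2rb, 215, 265 and 236 CPM in null and 543, 818 and 370.5 CPM in WT cells, fell 2.42-fold (log2 fold change −1.27, SE 0.27, edgeR adjusted p = 0.00184). Without WT replicate 2 its log2 fold change was −0.93 (adjusted p = 0.0362) and it was no longer a DEG.

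The other 4 receptor genes did not become DEGs. Counting any adjusted p under 0.05, which 13.9% of all genes reached, Il21r was also different and higher in null cells, at 185, 206 and 257 CPM against 117, 138 and 158 CPM (log2 fold change 0.65, SE 0.22, edgeR adjusted p = 0.0442). The shared chain Il2rg was 593 ± 27.3 CPM (SD, n = 3) in null and 522 ± 57.4 CPM (SD, n = 3) in WT cells, with overlapping libraries (log2 fold change 0.18, adjusted p = 0.374). Il15ra differed by 0.25 on the log2 scale (adjusted p = 0.291) and Il9r, near 1 CPM in both, by −0.17 (adjusted p = 0.868). Over the 8 genes the median log2 fold change was −0.72, beside −0.12 over all genes tested.

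**Figure D1:**
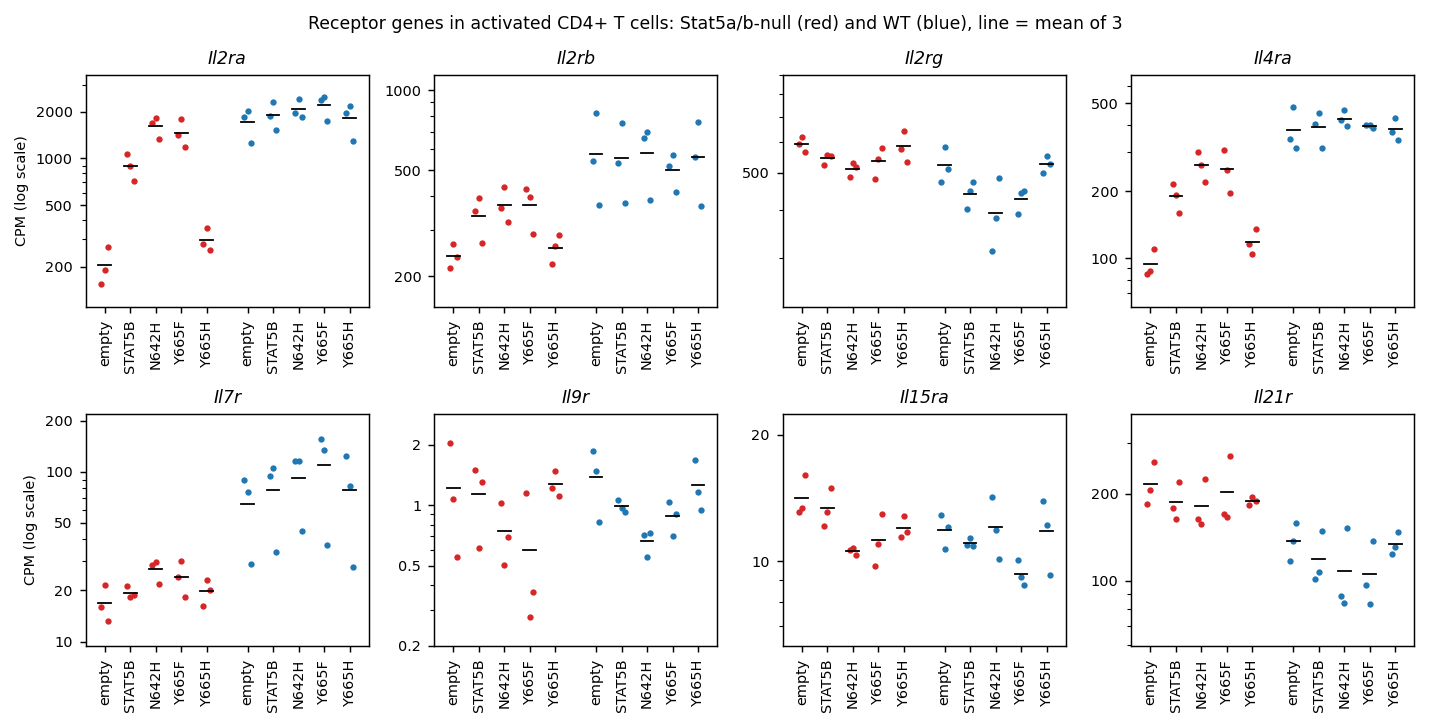
CPM of each receptor gene (log axis) in the 30 CD4+ libraries, 1 point per library and a line at the mean of 3, Stat5a/b-null in red and WT in blue. Il2ra and Il4ra are higher with STAT5B, N642H and Y665F than with the empty vector in null cells, while the 5 WT groups of either gene overlap.

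Putting STAT5B back raised 2 receptor genes in the null cells. Il2ra, 154, 191 and 268 CPM with the empty vector, was 1076, 890.2 and 719 CPM with STAT5B and so rose 4.36-fold (log2 fold change 2.12, SE 0.22, edgeR adjusted p = 2.52e-05). Il4ra rose from 94.2 ± 14.01 CPM (SD, n = 3) to 189.8 ± 27.9 CPM (SD, n = 3) (log2 fold change 1.002, SE 0.17, edgeR adjusted p = 0.00607), just past the limit of 1. The call was lost under 7 alternatives, at log2 fold changes of 0.97 to 1.00. It was also lost, at 0.89 to 1.00, without any 1 library of the fit except replicate 3 of the empty vector, replicate 3 of STAT5B, replicate 2 of N642H and replicate 1 of Y665F. DEGs made up 0.477% of 20113 genes in this comparison. Il2rb read 352, 395 and 268 CPM with STAT5B, each above the 3 empty-vector libraries, but missed the threshold (log2 fold change 0.49, adjusted p = 0.163). With the replicate number as a block in edgeR, its adjusted p was 0.0269 (log2 fold change 0.48, SE 0.13), still short of the fold-change limit.

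The STAT5B N642H construct, compared with the shared empty-vector libraries, also raised Il2ra and Il4ra. Il2ra reached 1695, 1818 and 1333 CPM (7.72-fold, log2 fold change 2.95, SE 0.22, edgeR adjusted p = 2.61e-07) and Il4ra 302, 263 and 221 CPM (2.71-fold, log2 fold change 1.44, SE 0.17, edgeR adjusted p = 4.81e-05), while 2.88% of all genes were DEGs. At an adjusted p under 0.05 alone, which 11.6% of genes met, Il2rb was higher at 372 ± 58.4 CPM (SD, n = 3) (log2 fold change 0.60, SE 0.17, edgeR adjusted p = 0.0273). Il15ra was lower at 10.6 ± 0.208 CPM (SD, n = 3) against 14.2 ± 1.62 CPM (SD, n = 3) (log2 fold change −0.46, SE 0.14, edgeR adjusted p = 0.0443), with all 3 libraries below those of the empty vector. Il7r stood at 28.4, 29.5 and 21.9 CPM, above the empty-vector libraries (log2 fold change 0.62, SE 0.20, adjusted p = 0.055). The replicate block in edgeR put Il7r (log2 fold change 0.63, adjusted p = 0.00443) and Il2rg (log2 fold change −0.25, adjusted p = 0.0369) under 0.05.

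With STAT5B Y665F, Il2ra and Il4ra rose as well, from those libraries again. Il2ra was 1423, 1791 and 1187 CPM (7.05-fold, log2 fold change 2.82, SE 0.22, edgeR adjusted p = 5.01e-07) and Il4ra 307, 250.2 and 196 CPM (2.61-fold, log2 fold change 1.39, SE 0.17, edgeR adjusted p = 8.64e-05), among 2.37% DEGs. Il2rb was 371 ± 72.5 CPM (SD, n = 3) and passed on adjusted p alone (log2 fold change 0.61, SE 0.17, edgeR adjusted p = 0.0311), as 9.58% of genes did. Il2rg, Il7r, Il9r, Il15ra and Il21r missed the threshold, with log2 fold changes from −1.06 (Il9r) to 0.48 (Il7r). The replicate block in edgeR put Il7r (log2 fold change 0.48, adjusted p = 0.0284) and Il15ra (log2 fold change −0.37, adjusted p = 0.0381) under 0.05.

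STAT5B Y665H left all 8 receptor genes short of the threshold against the empty vector in the edgeR test, where 0.0249% of genes were DEGs. DESeq2 also called 0, and 1 gene, Il2ra, had an unadjusted p under 0.05. The 3 Y665H libraries read 279.9, 354 and 257 CPM of Il2ra and overlapped the empty-vector ones (log2 fold change 0.56, adjusted p = 0.896). Il4ra was 116, 105 and 136 CPM (log2 fold change 0.35, adjusted p = 0.896).

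Set against unmutated STAT5B instead, Il2ra was 2.96-fold lower with Y665H, without overlap (log2 fold change −1.57, SE 0.21, edgeR adjusted p = 0.00295). It was the 1 DEG of the 8 receptor genes, against 0.149% of all genes. Il4ra was also below STAT5B in every Y665H library, but with an adjusted p of 0.132 (log2 fold change −0.65, SE 0.17), or 0.0183 with the replicate number as a block in edgeR. N642H and Y665F gave 0 DEGs among the receptor genes against STAT5B in edgeR and in DESeq2, where edgeR called 0.0696% and 0.00994% of all genes. Their Il2ra libraries nevertheless lay above those of STAT5B, by a log2 fold change of 0.83 (SE 0.21, adjusted p = 0.257) with N642H and 0.69 (SE 0.21, adjusted p = 0.628) with Y665F. With the replicate block in edgeR, the adjusted p was 0.0331 with N642H and 0.107 with Y665F. At an unadjusted p under 0.05 there were 4 receptor genes with N642H and 2 with Y665F, Il2ra and Il4ra being among them in both. Between Y665F and N642H themselves, 0% of genes were DEGs, edgeR and DESeq2 called 0 receptor genes and 0 had an unadjusted p under 0.05. The difference in Il2ra was −0.13 (SE 0.21) and that in Il4ra −0.05 (SE 0.17) on the log2 scale.

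In WT cells no construct moved a receptor gene past the threshold. All 7 WT comparisons gave 0 DEGs among the 8 genes in edgeR and in DESeq2. Of all genes, edgeR called 0.00975% for STAT5B, 0.985% for N642H, 0.707% for Y665F and 0.00488% for Y665H against the empty vector. Against STAT5B the shares were 0.00488% for N642H, 0% for Y665F and 0.00488% for Y665H. An unadjusted p under 0.05 was met by Il2rg and Il9r with N642H against the empty vector and by 0 receptor genes in the other 6 comparisons. Il2ra was 1864, 2033 and 1266 CPM with the empty vector and 2403, 2495 and 1747 CPM with Y665F, overlapping groups with a log2 fold change of 0.37 (SE 0.22, adjusted p = 0.484). Each library was higher with Y665F than the empty-vector library of its number, and with the replicate number as a block the adjusted p was under 0.05 (log2 fold change 0.38, SE 0.10, adjusted p = 0.0167). Il4ra stayed between a mean of 379.5 ± 88.6 CPM (SD, n = 3) with the empty vector and 425 ± 37.1 CPM (SD, n = 3) with N642H.

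Il7r in WT cells split by replicate number. The third library of every vector was at 27.4 to 44.8 CPM, while the first and second were at 76.0 to 157 CPM. WT libraries of one number shared their deviations across genes, and with the number as a block Il7r differed on adjusted p for N642H (log2 fold change 0.57, SE 0.13, adjusted p = 0.00539) and Y665F (log2 fold change 0.68, SE 0.13, adjusted p = 0.00115), still under the fold-change limit. For STAT5B the blocked values were log2 fold change 0.27, SE 0.13, adjusted p = 0.666, and for Y665H log2 fold change 0.19, SE 0.13, adjusted p = 1. The block also brought Il2rg (log2 fold change −0.40, SE 0.10, adjusted p = 0.0153) and Il9r (log2 fold change −0.96, SE 0.29, adjusted p = 0.0455) with N642H and Il21r with Y665F (log2 fold change −0.39, SE 0.12, adjusted p = 0.0295) under an adjusted p of 0.05, all 3 lower than with the empty vector. Apart from these, Il7r and Il2ra with Y665F, the receptor genes stayed above it in the 7 blocked WT comparisons, and none passed the fold-change limit as well.

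The response to a construct differed between the 2 backgrounds for Il2ra and Il4ra. An interaction contrast, the log2 response in null cells minus that in WT cells, was 1.98 for Il2ra with STAT5B (SE 0.32, edgeR adjusted p = 0.00294), 2.71 with N642H (SE 0.33, adjusted p = 1.73e-05) and 2.48 with Y665F (SE 0.33, adjusted p = 6.54e-05). For Il4ra it was 1.31 with N642H (SE 0.24, adjusted p = 0.00584) and 1.36 with Y665F (SE 0.24, adjusted p = 0.00407). With STAT5B the Il4ra contrast of 0.97 missed the threshold (adjusted p = 0.198). These 5 calls stood without each library in turn. With Y665H there were 0 in edgeR and DESeq2, and 0 receptor genes at an unadjusted p under 0.05. Of all genes tested, 0.1% were called for STAT5B, 0.341% for N642H, 0.419% for Y665F and 0.00455% for Y665H. The other 6 receptor genes did not pass in any of these contrasts.

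**Figure D2:**
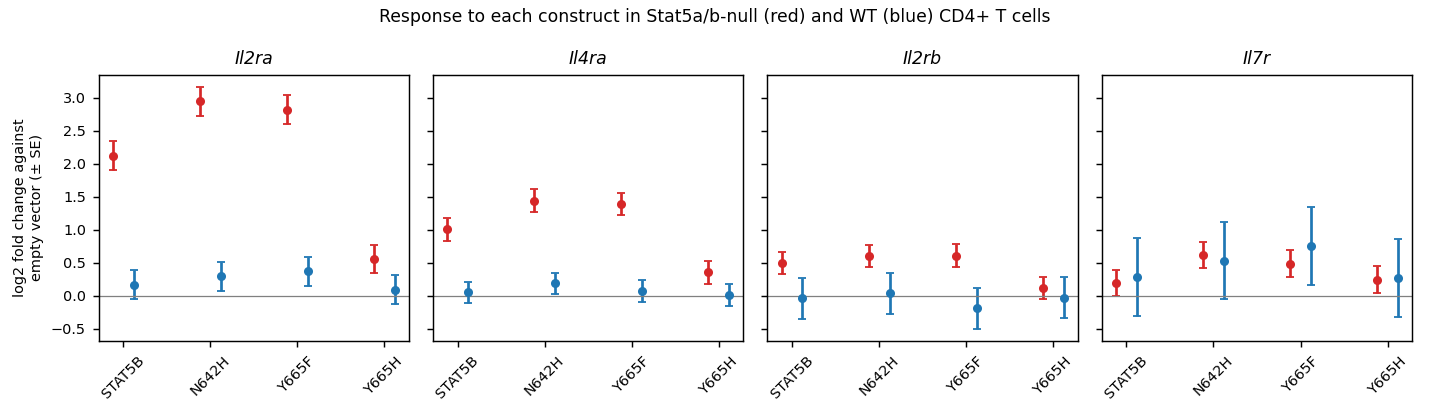
log2 fold change against the empty vector (± SE, each from 3 libraries per group) for Il2ra, Il4ra, Il2rb and Il7r in Stat5a/b-null (red) and WT (blue) cells. Il2ra rises by 2.12, 2.95 and 2.82 in null cells with STAT5B, N642H and Y665F, while its WT values stay between 0.08 and 0.37 over the 4 constructs.

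Null cells given STAT5B still differed from WT cells with the empty vector. No receptor gene was a DEG in edgeR, beside 0.778% of all genes, but 4 had an unadjusted p under 0.05 and DESeq2 called 2. Il2ra, at 895 ± 178 CPM (SD, n = 3) against 1721 ± 403 CPM (SD, n = 3), was lower on adjusted p alone (log2 fold change −0.94, SE 0.23, edgeR adjusted p = 0.0357), as were 1.11% of genes in either direction. Il4ra, at 189.8 ± 27.9 CPM (SD, n = 3), was also lower and sat just short of the limit of 1 (SE 0.17, adjusted p = 0.00179), which it passed with DESeq2 at −1.01. Il7r was at 21.2, 18.3 and 18.8 CPM, below each WT library (log2 fold change −1.73, SE 0.49, edgeR adjusted p = 0.0868), and became a DEG with DESeq2, in a fit of the 2 groups alone (−1.74, adjusted p = 0.0135) and with the replicate block (log2 fold change −1.57, SE 0.33, adjusted p = 0.00377). The replicate block in edgeR also put Il2rb (log2 fold change −0.73, adjusted p = 0.012) and Il21r (log2 fold change 0.44, adjusted p = 0.0386) under 0.05, short of the fold-change limit. Without WT replicate 3 of the empty vector, Il2ra, Il4ra and Il7r were all DEGs, with log2 fold changes of −1.11, −1.10 and −2.07. Il4ra was also one, down to −1.09, without WT replicate 1, null replicate 2 or STAT5B replicate 1 or 2, and Il7r at −1.72 without WT replicate 3 of Y665H or of Y665F.

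Per kilobase of exon, Il2ra and Il2rg had the highest mean levels of the 8 genes in 8 of the 10 CD4+ groups. In null cells with Y665F, Il2ra was at 257 ± 53.3 CPM per kb (SD, n = 3), Il2rg at 224 ± 20.8, Il2rb at 86.6 ± 16.9 and Il21r at 60.8 ± 17.6. Lower levels were seen for Il4ra with 41.8 ± 9.30, Il7r with 5.17 ± 1.23, Il15ra with 2.53 ± 0.361 and Il9r with 0.121 ± 0.0973 CPM per kb. With the empty vector in null cells the order was led by Il2rg at 248 ± 11.5 CPM per kb, and Il2ra, at 35.8 ± 10.2, stood after Il21r and Il2rb. By coding length, which leaves out the untranslated ends, Il2ra came right after Il2rg in that group.

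The pattern of Il2ra over the 30 CD4+ libraries was most like those of Socs2 (Pearson r of log2(CPM + 1) 0.991), Cish (0.978) and Rras2 (0.977) among the 11459 genes that average 1 CPM or more. Socs2 and Cish encode feedback inhibitors of cytokine signaling. For Il4ra the 3 most alike were Coro2a (0.980), Treml2 (0.980) and Kcnk5 (0.979), for Il2rb Gpr146 (0.965), Sema4a (0.958) and Ccnd3 (0.952), and for Il7r Mocos (0.960), Tnp2 (0.957) and Rbpj (0.955). These values describe 30 libraries that share backgrounds and vectors.

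Around the receptors, the feedback inhibitors Cish, Socs1, Socs2 and Socs3 changed in many of the same comparisons as Il2ra. Against the empty vector in null cells, 3 of 4 rose with STAT5B, 4 with N642H, 4 with Y665F and 1, Socs2, with Y665H, and all 4 were lower in null than in WT cells. In WT cells 0 of 4 passed with any construct in edgeR. Socs2 rose by 4.48 with STAT5B and 5.78 with N642H on the log2 scale. Of 7 ligand genes, Il9 and Il4 rose in null cells with N642H and with Y665F. Il9 was at 2.95 ± 1.28 CPM (SD, n = 3) with N642H and at 0 reads in the 3 libraries of the empty vector, while the gene for its receptor stayed near 1 CPM. Il4 averaged at most 0.817 ± 0.597 CPM (SD, n = 3) in null cells.

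In splenic T cells, the Y665F and Y665H knock-ins differed in 5 of the 8 receptor genes. Under IL-2 and IL-7, Il2ra was 193, 254, 158 and 175 CPM in the 4 Y665F libraries, 157, 125, 89.8 and 108 CPM in WT and 21.1, 64.2, 67.8 and 37.6 CPM in Y665H. The 3 groups did not overlap, although the lowest Y665F and the highest WT library nearly met, and Y665F exceeded Y665H 4.09-fold (log2 fold change 2.03, SE 0.33, edgeR adjusted p = 0.000551). Il2rb was 541, 486, 190.0 and 440.1 CPM in Y665F and 147, 135, 125 and 145 CPM in Y665H, 3.01-fold apart (log2 fold change 1.59, SE 0.27, edgeR adjusted p = 0.000852). Il4ra was higher in Y665F cells as well, at 735 to 1409.8 against 313 to 486 CPM (log2 fold change 1.46, SE 0.30, edgeR adjusted p = 0.00359). So was Il15ra, at 15.6 to 21.7 against 4.28 to 9.38 CPM (log2 fold change 1.58, SE 0.28, edgeR adjusted p = 0.00137). Il7r went the other way, with 459, 414, 247 and 231 CPM in Y665F and 1070.1, 1413, 1538 and 1216 CPM in Y665H, 3.87-fold lower (log2 fold change −1.95, SE 0.24, edgeR adjusted p = 3.57e-05). DEGs made up 4.78% of the 22313 genes tested between the mutants. Il2rg (−0.05), Il9r (0.80) and Il21r (0.40 on the log2 scale) did not pass. Y665H replicate 4 appears to repeat replicates 1 and 2, so these tests count their reads more than once. Leaving replicate 4 out of the fit kept the 5 calls.

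Fewer differences from WT T cells reached the threshold, in comparisons that share their libraries with those between the mutants. Y665F cells had less Il7r, 338 ± 116 CPM (SD, n = 4) against 859.6 ± 134 CPM (SD, n = 4) (log2 fold change −1.35, SE 0.23, edgeR adjusted p = 0.00476), where 1.53% of genes were DEGs. Il2ra, Il4ra and Il15ra had unadjusted p under 0.05 but adjusted values of 0.206, 0.122 and 0.0973, with log2 fold changes of 0.70, 0.84 and 0.84. For Y665H against WT, edgeR called 0 receptor genes and 0.0717% of all genes, and 6 receptor genes had an unadjusted p under 0.05. DESeq2 called 2, Il2ra and Il2rb. Their edgeR log2 fold changes were −1.33 (SE 0.32, adjusted p = 0.144) and −1.12 (SE 0.27, adjusted p = 0.142), with no overlap between the groups. Without Y665F replicate 3, which held 2851451 reads, the adjusted p of Il2rb was 0.0225. All these tests of Y665H cells count replicate 4, which appears to repeat replicates 1 and 2, as a separate library.

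Between Y665F cells with and without interleukin, 6 of the 8 receptor genes differed, against 2.97% of all genes. The study's methods for RNA-seq describe culture of splenic T cells only with interleukin. Interleukin and time in culture therefore cannot be told apart here. Il2ra went from 29.9, 64.00 and 20.8 CPM without interleukin to 193, 254, 158 and 175 CPM with it (5.10-fold, log2 fold change 2.35, SE 0.37, edgeR adjusted p = 0.000261). Il2rb rose 4.88-fold from 84.9 ± 17.8 CPM (SD, n = 3) (log2 fold change 2.29, SE 0.31, edgeR adjusted p = 4.63e-05), and Il4ra 3.92-fold from 272 ± 149 CPM (SD, n = 3) (log2 fold change 1.97, SE 0.33, edgeR adjusted p = 0.000629). Il7r fell 6.56-fold from 2194, 1659 and 2805 CPM, with no overlap (log2 fold change −2.71, SE 0.25, edgeR adjusted p = 5.14e-07). Il21r rose (log2 fold change 1.15, SE 0.26, edgeR adjusted p = 0.00885), but leaving out replicate 1 of the cells without interleukin gave a log2 fold change of 0.94 (adjusted p = 0.131). Il15ra rose too (log2 fold change 1.11, SE 0.30, edgeR adjusted p = 0.0329), a call that was lost under 5 alternatives and without any 1 of 8 libraries. Those were WT replicate 2, Y665H replicate 4, Y665F replicates 1, 2 and 4 with interleukin, and each of the 3 without it, with adjusted p from 0.0534 to 0.186. Y665H replicate 4, which appears to repeat replicates 1 and 2, enters this test through the shared estimate of spread. In the fit without that library Il15ra was not called (log2 fold change 1.11, SE 0.32, edgeR adjusted p = 0.0534). The shared chain Il2rg was higher in each treated library, by 0.71 on the log2 scale, with an adjusted p of 0.0559. The median over the 8 genes was 1.13, beside −0.13 over all genes. No cells of the other genotypes without interleukin were analysed here.

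Without the 3 splenic T cell libraries of under 5000000 reads, the 12 calls of the splenic T cell comparisons all stood. Those left out include the Y665H libraries whose reads Y665H replicate 4 appears to repeat. Replicate 4, with 5327354 reads, stayed in, so their reads were not removed. The check therefore cannot show whether the calls between Y665F and Y665H cells depend on those reads. Other marker lists moved with the splenic T cell groups. The summed level of the 12 T cell markers was 1506 to 3182 CPM in Y665F cells with interleukin, 3052 to 4021 in WT and 2746 to 3271 in Y665H, and that of 7 neutrophil markers was 69.00 to 295, 6.32 to 13.4 and 22.6 to 72.1 CPM. Of the latter, 4 of 7 were DEGs in Y665F against WT cells, all higher. Relative to the mean of the T cell genes, on the log2(CPM + 1) scale and as a description, the Y665F minus WT difference of Il7r was −0.62 in place of −1.40, with overlapping groups. That of Il2ra was 1.48 in place of 0.70, and that of Il2rb, whose groups overlapped before, 1.21 in place of 0.44 without overlap. Between the mutants, Il7r stayed apart on that scale at −1.46. The summed level of 6 NK markers was 275 to 412 CPM in Y665F cells with interleukin, 97.2 to 383 in WT, 41.4 to 77.01 in Y665H and 55.7 to 81.7 in Y665F without interleukin. That of 6 naive T cell markers was 1679 to 4002 CPM, 4767 to 5218, 4624 to 5007 and 3467 to 5780.3 in the same order. For 8 regulatory T cell markers it was 265 to 563, 370 to 506, 191 to 366 and 281 to 433 CPM. Of these, 3 of 8 were DEGs in Y665F against Y665H cells, all higher. Cd4 was 79.0 to 218, 302 to 372, 193 to 365 and 154 to 326 CPM, again in that order. It was a DEG, lower, in Y665F against WT cells with interleukin. Y665F replicate 3 also held the highest sums of B cell markers (648 CPM) and erythroid markers (1379 CPM). NK and memory T cells are known to carry Il2rb, and the part of these or other cells in the receptor levels was not tested. In such bulk samples, fewer cells of a type and less RNA per cell cannot be told apart.

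**Figure D3:**
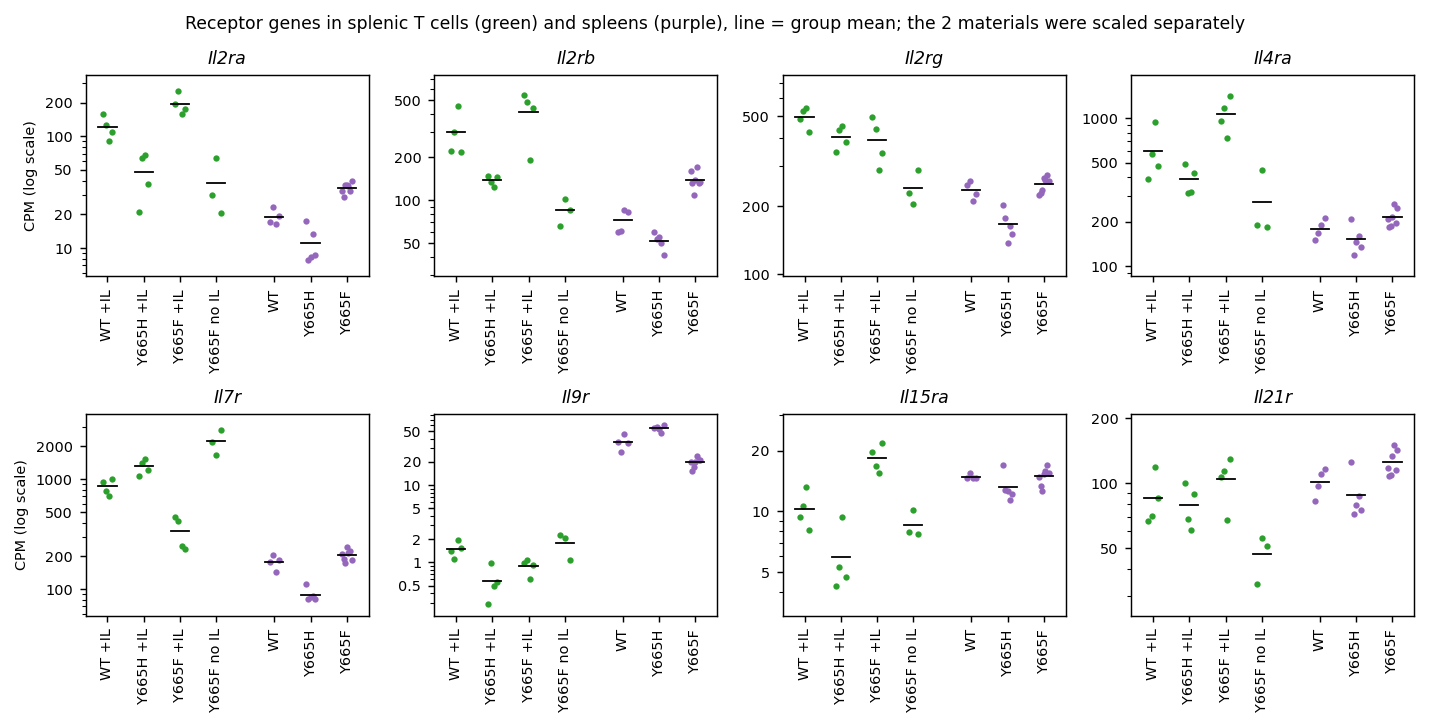
CPM of each receptor gene (log axis) in splenic T cells (green, with or without IL-2 and IL-7) and spleens (purple), 1 point per library and a line at the group mean. Il7r runs opposite to Il2ra in the T cells, and Il9r, near 1 CPM there, is the gene whose order across the spleens is turned.

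Spleens differed between the knock-ins in receptors of both signs. Against Y665H, 4 of 8 receptor genes were DEGs in Y665F spleens, beside 5.28% of all genes. At an adjusted p under 0.05 alone 7 of the 8 passed, beside 25.8%. Il2ra was 28.9, 35.6 and 39.5 CPM (lowest, median and highest of 7) in Y665F, 17.3, 23.5, 16.3 and 19.2 CPM in WT and 17.3, 7.83, 8.35, 13.4 and 8.66 CPM in Y665H. All Y665F spleens exceeded all others, and Y665H and WT overlapped through 1 Y665H spleen, replicate 1. The Y665F to Y665H ratio was 3.11 (log2 fold change 1.64, SE 0.18, edgeR adjusted p = 6.28e-06). Il2rb was 109, 134 and 170.3 CPM in Y665F and 60.4, 53.5, 55.1, 50.01 and 41.2 CPM in Y665H (log2 fold change 1.42, SE 0.12, edgeR adjusted p = 6.71e-07). Il7r was 173, 209 and 245 CPM in Y665F and 112, 81.4, 85.2, 86.6 and 81.00 CPM in Y665H (log2 fold change 1.20, SE 0.11, edgeR adjusted p = 7.48e-07), the reverse of the order in cultured T cells. The difference between the 2 materials was not tested. Il2rg (0.59), Il4ra (0.49) and Il21r (0.51 on the log2 scale) were higher in Y665F on adjusted p alone.

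Il9r had the opposite order. It was 55.5, 57.3, 53.00, 46.7 and 59.8 CPM in Y665H spleens, 35.8, 27.04, 45.8 and 34.9 CPM in WT and 15.4, 20.1 and 23.9 CPM (lowest, median and highest) in Y665F, with no overlap between any 2 genotypes. Between the mutants it differed 2.75-fold (log2 fold change −1.46, SE 0.12, edgeR adjusted p = 2.26e-07). In both T cell materials its group means were 0.573 to 1.79 CPM, at 1 to 74 reads per library. Il9 itself, the ligand, had 0 reads in all Y665H and Y665F spleens. In the same libraries the summed B cell markers were 2966 to 4228 CPM in Y665H and 2943 to 3674 CPM in Y665F, and the erythroid markers 1105 to 6747 and 661 to 2142 CPM. Their part in the Il9r levels was not tested.

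Against WT spleens, in comparisons that again share libraries, Y665F had 0 DEGs among the receptor genes in edgeR and DESeq2, beside 1.2% of all genes, but 4 had an unadjusted p under 0.05. On adjusted p alone, as for 12.2% of genes, Il2ra (log2 fold change 0.86, SE 0.18, edgeR adjusted p = 0.00619) and Il2rb (log2 fold change 0.95, SE 0.13, edgeR adjusted p = 0.000319) were higher and Il9r lower (log2 fold change −0.86, SE 0.12, edgeR adjusted p = 0.000437), each without overlap. Il2rb passed the fold-change limit without WT replicate 3 or 4 or Y665F replicate 3, at 1.01 to 1.05. Y665H spleens had 1 DEG, beside 4.37% of all genes. Il7r was lower, 89.2 ± 12.8 CPM (SD, n = 5) against 178 ± 25.8 CPM (SD, n = 4) (2.00-fold lower, edgeR adjusted p = 0.000392). It lay at the limit of 1, and 6 alternatives put it just under. So did leaving out WT replicate 1, 2 or 4, Y665H replicate 2, 3, 4 or 5, or Y665F replicate 5 or 7, at −0.90 to just under the limit. On adjusted p alone, met by 19.8% of genes, Il2ra (−0.78), Il2rb (−0.48) and Il2rg (−0.51) were lower and Il9r (0.60 on the log2 scale) higher.

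T cell markers moved with the same spleens, and their part in the receptor levels was not tested. The summed level of the 12 T cell genes was 873 to 1235 CPM in Y665F, 657 to 793 in WT and 456 to 691 in Y665H, where replicate 1 was highest, and that of the 8 regulatory T cell genes was 291 to 355, 265 to 279 and 217 to 273. Relative to the mean of the T cell genes, on the log2(CPM + 1) scale and as a description, the Y665F minus Y665H difference of Il2ra was 0.61 in place of 1.61, still without overlap, and relative to the regulatory T cell genes it was 0.94. That of Il2rb came to 0.41 and that of Il7r to 0.20, with overlapping groups. Il2rg turned to −0.40, Il4ra to −0.50 and Il21r to −0.47. Il15ra came to −0.83 and Il9r widened to −2.42. On the same T cell scale, the Y665F minus WT difference was 0.26 in place of 0.83 for Il2ra and 0.37 in place of 0.94 for Il2rb. Both then had overlapping groups, as did Il2ra relative to the regulatory T cell genes (0.32) and Il7r (−0.37). Il2rg (−0.49), Il4ra (−0.32), Il15ra (−0.57), Il21r (−0.27) and Il9r (−1.39) lay below WT without overlap. Other cells of the spleen carry several of these receptors, so such ratios do not give a level per T cell.

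**Figure D4:**
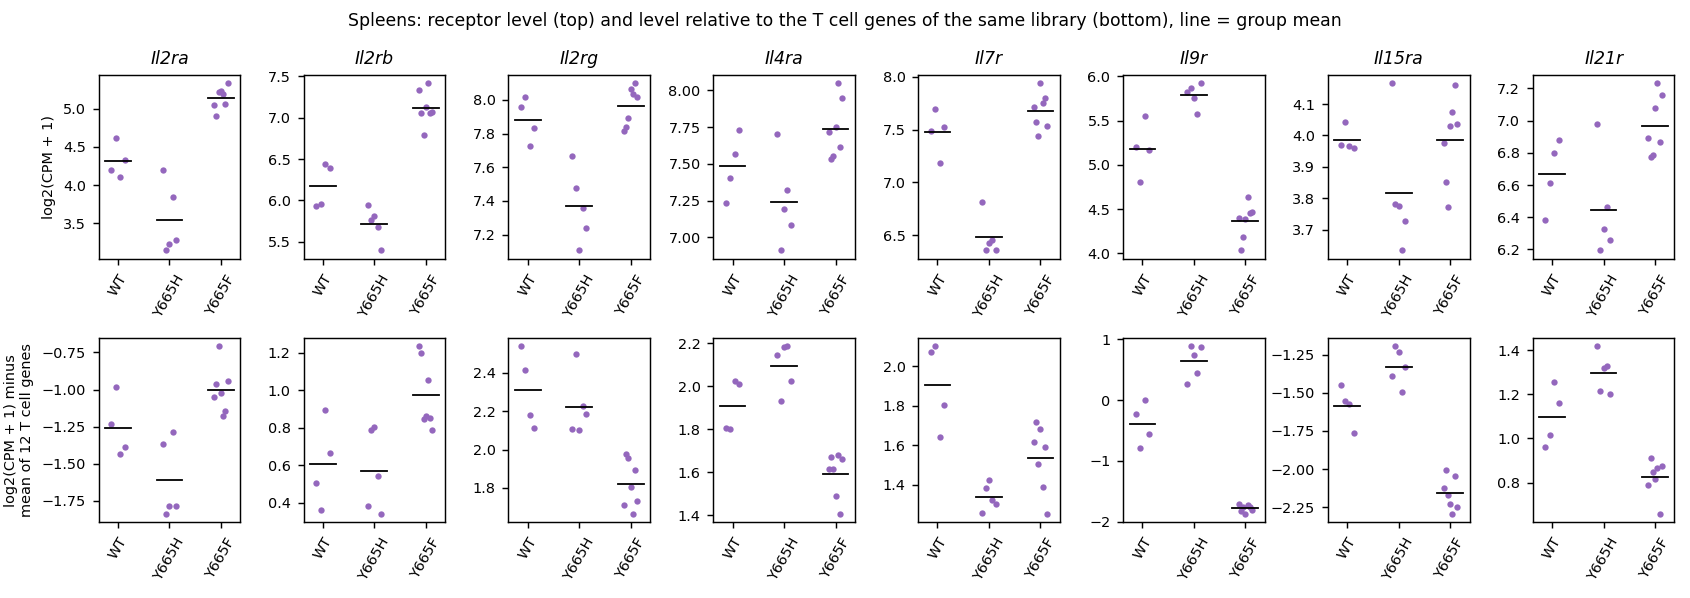
Receptor levels in spleens as log2(CPM + 1) (top) and after subtracting the mean of 12 T cell genes of the same library (bottom), 1 point per library and a line at the group mean. Il2ra stays higher in Y665F than Y665H in both rows, while Il2rg, Il4ra and Il21r change direction between them.

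Il13ra2, a chain that binds IL-13, rose in Y665F spleens against WT (log2 fold change 1.44, SE 0.19, edgeR adjusted p = 0.000246) and against Y665H, as 1 of 3 other chains that pair or compete with these receptors. Cish rose in Y665F spleens against both genotypes, by 1.81 and 1.49 on the log2 scale. In splenic T cells 4 of 4 feedback genes were higher in Y665F cells with interleukin than in those without it. Over all 28 comparisons, the 5 receptor chains of the neighboring common beta-chain family gave 1 DEG in 140 tests, Csf2rb in Y665F against Y665H T cells (log2 fold change 1.21, SE 0.35, edgeR adjusted p = 0.0421).

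**Figure D5:**
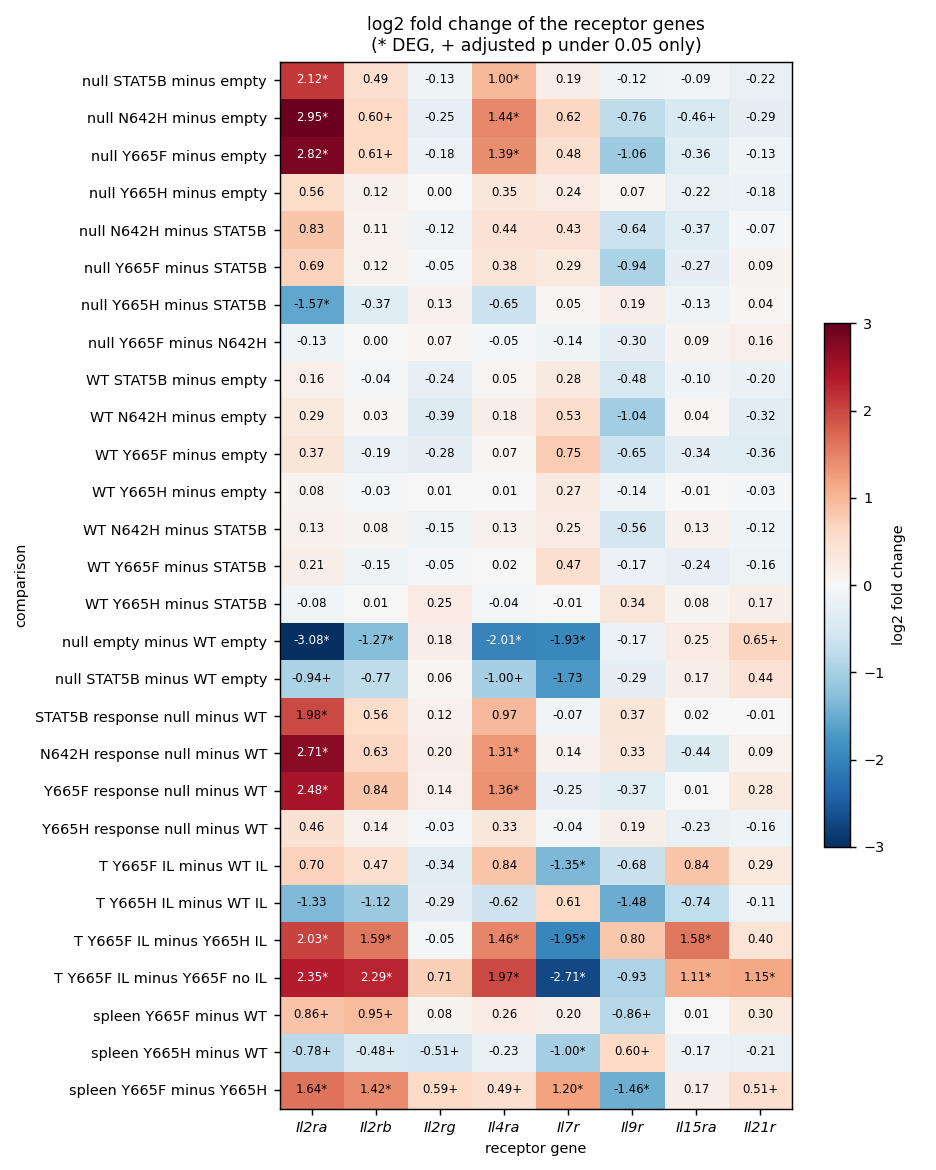
log2 fold change of each receptor gene (columns) in each of 28 comparisons (rows), with * for DEGs and + for an adjusted p under 0.05 alone. Il2ra carries the largest values in null cells, the WT rows hold no mark, and Il7r is negative in the splenic T cell rows with Y665F in first place but positive between the mutant spleens.

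Across all 17 groups, on a scaling common to the 61 libraries, Il2ra had the widest range, 250-fold from WT CD4+ cells with Y665F (2414 CPM) to Y665H spleens (9.67 CPM). In the order of its group means, 11 of 16 neighboring groups overlapped. Il7r ranged 118-fold, from Y665F T cells without interleukin (2216 CPM) to null CD4+ cells with the empty vector (18.7 CPM), with 12 of 16 neighbors overlapping. Il9r ranged 88.2-fold, Il2rb 14.0-fold, Il4ra 9.95-fold and Il21r 5.05-fold. The flattest were Il2rg with 4.53-fold and Il15ra with 3.22-fold. The 3 materials differ in cell type, culture and sorting, so these orders are descriptions.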

How the data were processed

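The authors trimmed reads of ribosomal RNA-depleted stranded libraries with Trimmomatic 0.36, aligned them to mm10 with STAR and counted them per gene with HTSeq 0.9.1, per the study's methods and the submitters' processing notes. The deposited files hold these raw counts by gene symbol. Reads given to no gene, 28.4% to 85.7% of a library, stand in 5 further lines that were not used. HTSeq's strand setting is not given in the sources used here. The receptor genes, the lists and the comparisons were chosen with earlier results of these data known.

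The counts were tested with edgeR 4.0.16 (R 4.3.3, limma 3.58.1). Null CD4+ cells, WT CD4+ cells, the 2 backgrounds together, splenic T cells and spleens each had a fit. Genes with a sum of 10 reads or more entered, scaled by TMM, and glmQLFit and glmQLFTest were run with Benjamini-Hochberg adjustment over all genes entered. SE is |log2 fold change| over the root of F. The 8 receptor genes passed the filter in each fit and are all named, with the 3 genes most like each receptor gene called in CD4+ cells. The scripts were tested on simulated data. Alternatives were RLE factors, library-total scaling, DESeq2 1.42.0, filterByExpr, no filter, groups compared alone, a replicate block, no fold-change minimum, left-out libraries, levels relative to T cell lists, and coding length. In WT CD4+ cells the deviations of same-numbered libraries correlated above 0.1 in 30 of 30 pairs, so blocked values are given there where they bring an adjusted p under 0.05. In null cells 29 of 30 pairs did, and such blocked values are given beside the unblocked ones. This pairing comes from the data, not from a labelled batch. Promoter sequences are from RefSeq (GRCm38.p6). At 2017012 reads, 1 CPM is about 2 reads, so low genes are limited by counting. The precision given covers these libraries only.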

Additional observations from a re-analysis of the deposited data

Results flagged for a closer look

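In the 6 splenic T cell and spleen groups of 4 or more libraries, 48 combinations of receptor gene and group were searched for a library far from the others (Dixon's test, 95% level), of which chance flags about 1 in 20. It found 4. Y665H spleen replicate 1 was high in Il7r (112 CPM), Il15ra (17.0 CPM) and Il21r (125 CPM). The same spleen had the lowest sum of erythroid markers in its group, 1105 CPM against 4812 CPM or more, and the highest sum of T cell markers, 691 CPM. WT spleen replicate 2 was high in Il15ra, at 15.5 CPM in a group that spans 14.6 to 15.5 CPM.

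The response to a construct differed between null and WT CD4+ T cells by an interaction test (edgeR) in 5 cases. For Il2ra the response in null cells exceeded that in WT cells by 1.98 with STAT5B, 2.71 with N642H and 2.48 with Y665F on the log2 scale. For Il4ra the excess was 1.31 with N642H and 1.36 with Y665F.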

How the results depend on the processing

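Calls are counted over receptor genes and comparisons. Without a fold-change minimum the null against WT comparisons gave 7 calls in place of 4, and the spleens 15 in place of 5. Under the other alternatives that keep all libraries, each family's count stayed within 1.5 times its value. Leaving out 1 library gave 3 to 7 calls for null against WT, the lowest without WT replicate 2 and the highest without WT replicate 3. With the replicate number as a block, the null constructs against the empty vector gave 5 calls in place of 6, null against WT 5 in place of 4, the splenic T cells 11 in place of 12 and the spleens 4 in place of 5. The calls it changed were Il4ra with STAT5B in null cells (0.99), Il7r in null cells with STAT5B against WT (−1.57, adjusted p = 0.00377), Il15ra in T cells with interleukin (adjusted p = 0.0762) and Il7r in Y665H spleens (−0.99), and it changed no other call. Same-numbered libraries correlated above 0.1 in 29 of 30 null pairs, 6 of 21 pairs of splenic T cells and 5 of 13 of spleens. The number was taken to pair libraries only where every pair passed 0.1, which null cells narrowly missed (lowest 0.0413). In null cells other pairs had a median correlation of −0.177, against 0.324 for same-numbered ones, so null libraries shared deviations by number too. There the block moved the adjusted p of Il2rb with STAT5B to 0.0269, of Il2rg with N642H to 0.0369, of Il15ra with Y665F to 0.0381, of Il7r with N642H to 0.00443 and with Y665F to 0.0284, of Il2ra between N642H and STAT5B to 0.0331 and of Il4ra between Y665H and STAT5B to 0.0183. With the block Il2rb in null cells with STAT5B against WT had 0.0120, and Il21r, higher than in WT, had 0.0386 (log2 fold change 0.44, SE 0.12). All of these stayed short of the fold-change minimum. Of 373 values under alternatives other than leaving out a library, for 52 combinations of gene and comparison, 346 kept their call, 19 lost it, 8 gained it and 0 changed sign. Relative to the T cell list, the difference between Y665F and Y665H spleens turned to −0.40 for Il2rg, −0.50 for Il4ra and −0.47 for Il21r. RLE or library-total scaling shifted the median log2 fold change of all splenic T cell genes to between −0.31 and 0.21 and changed the sign of no call. Depth limits Il9r in splenic T cells, with 1 to 47 reads per library.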
